A study of Mus musculus with 55 samples.

Results

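Ifi203, Ifi204, Ifi207, Ifi209, Ifi213, Mndal, Mnda, Aim2 and Pyhin1 are symbols of the mouse PYHIN family, which comprises the interferon-inducible Ifi200 cluster of chromosome 1 and its neighbour Aim2. The members were chosen by name, as the rows of the deposited count tables that carry these 9 symbols. The first table held 7 of them as they stand. Mnda was read from the row Ifi211 (ENSMUSG00000026536), because RefSeq lists the names as synonyms and 61.9% of the exon bases of Mnda in the second table lie in its exons. Pyhin1 was read from the row Ifi209 on the same grounds, with 98.3% of its exon bases shared. The 9 symbols therefore stood for 8 genes of the 55421 rows of the first table, and 6 of the symbols had a row among the 35976 of the second table.

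PYHIN proteins typically join a pyrin domain, through which proteins assemble with each other, to HIN domains, which bind DNA. Aim2 recognises double-stranded DNA in the cytosol and builds an inflammasome with the adaptor Pycard (ASC) and caspase-1, whereas Ifi204 (p204), a relative of human IFI16, has been linked to DNA-triggered interferon production through STING. Most genes of the cluster are known as interferon-induced genes, and in the bone marrow the family has been studied mainly in myeloid and lymphoid cells, where some members restrain proliferation or alter transcription.

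The RNA was read in bulk from cells sorted out of mouse bone marrow. The first set had 46 libraries of 6 populations: stem cells of the long-term (LT-HSC) and short-term (ST-HSC) kind, and progenitors of the common lymphoid (CLP), common myeloid (CMP), granulocyte-monocyte (GMP) and megakaryocyte-erythroid (MEP) kind. Each population had 4 Tet2 KO libraries and 4 WT libraries, or 3 WT libraries in the case of both stem cell populations. The second set had 9 LT-HSC libraries, 3 each labelled WT, Sting KO and Tet2;Sting DKO. Per the study's methods, all mice were C57BL/6. Tet2 KO mice carried Tet2 f/f and Mx1-Cre, a Cre that interferon switches on in blood cells and many other cells, and were injected with the interferon inducer poly(I:C) and then kept for months, whereas Sting was deleted in the germline. The methods give the injections as the means of deleting Tet2, and the study dates another experiment, on mice of all genotypes, from the injection. For the WT and Sting KO mice of these libraries the treatment is not stated outright, and its part in the differences was not tested. The labels give 200 sorted cells per library and a full-length SMART-seq kit, whereas the study's methods give a larger approximate number of cells per group.

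Total counts per library ran from 50458473 to 102148079 in the first set and from 26776517 to 78682096 in the second. Gene-level counts of the deleted genes did not check the labels. Tet2 in LT-HSC, for example, was at 11.3 to 14.3 CPM (counts scaled to a library of fixed size) in WT and 12.1 to 40.4 in Tet2 KO, and Tmem173 (Sting) in the second set reached 122 CPM in a library labelled Sting KO and 45.3 in WT. The genotypes below are therefore those of the labels. The CLP libraries stood apart. The lymphoid progenitor marker Il7r was at 233 to 1105 CPM in them, but Rag1 was at 0 in all WT CLP libraries, Dntt ranged from 0.830 to 1664 CPM, and a GMP list ranged from 2.60 to 12084 CPM. Summed dendritic cell markers were at 2644 to 3913 CPM in WT CLP and 1546 to 1847 in Tet2 KO CLP, without overlap, and summed B cell markers at 569.6 to 1223 and 121.6 to 675. Of these lists, Itgax (dendritic cell) and Pax5 (B cell) were at 0 in all WT CLP libraries. The dendritic cell list also summed to 214 to 495 CPM in Tet2 KO LT-HSC, so the sums do not by themselves show these cell types. The CLP libraries also had fewer genes with a count (13754 to 16903) than the libraries of the other populations (17586 to 20964). Results that rest on CLP are given with and without these libraries where a test was made, and the part of other cell types in them was not tested.

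The 8 genes lie within 591794 bp of chromosome 1 (mm10, positions 173350879 to 173942672). In the order of the chromosome, and on the minus strand unless stated, these are Aim2 (ENSMUSG00000037860, chr1:173350879-173466040, plus strand), Ifi213 (ENSMUSG00000073491, chr1:173566283-173599274), Ifi209 (ENSMUSG00000043263, chr1:173630917-173647928, plus strand), Ifi207 (ENSMUSG00000073490, chr1:173723427-173741747), Ifi204 (ENSMUSG00000073489, chr1:173747293-173766943), Mndal (ENSMUSG00000090272, chr1:173849126-173942491), Ifi211 (chr1:173896345-173913046) and Ifi203 (ENSMUSG00000039997, chr1:173920407-173942672). The genes share sequence with each other and with further genes of the family to unequal degrees. Of all 50-base words in its transcripts, Ifi211 shared 72.8% with other genes, chiefly Ifi205 (44.7%), and Ifi209 shared 33.7%, chiefly with Ifi214 (33.4%). The share was 20.02% for Ifi204, 19.6% for Mndal, 15.6% for Ifi213, 12.4% for Ifi203, 7.29% for Ifi207 and 0.742% for Aim2. How the authors' counting treated reads that match several genes is not given in the sources used here, so the levels of Ifi211 and Ifi209 are uncertain in particular. Mndal and Ifi203 overlap on the same strand, with 37 exon bases in common.

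The windows around the start sites of 7 of the 8 genes were read from RefSeq (GRCm38.p6, 250 bases before to 50 bases after the start). Those of Ifi203 (chr1:173942443-173942742, minus strand) and Mndal (chr1:173880138-173880437, minus strand) are shown whole because the levels of these genes rose and fell together across the libraries. Those of Ifi209 (chr1:173630609-173630908, plus strand) and Aim2 (chr1:173420354-173420653, plus strand) are shown whole because their levels did not follow Ifi203 over all libraries, CLP included (Pearson's r of log2 CPM 0.143 and 0.138). Outside CLP, the WT means of Aim2, like those of Ifi203, were highest in ST-HSC and lowest in MEP. Stretches of 60 bases are shown for Ifi213 (chr1:173599311-173599370), Ifi211 (chr1:173913049-173913108) and Ifi207 (chr1:173741816-173741875), all on the minus strand. Capitals mark the 10 bases of a GAAA followed, after any 2 bases, by another GAAA, the core of an interferon-stimulated response element, or, in Ifi209, the 10 bases closest to its form GAAATCGAAA.
Ifi203: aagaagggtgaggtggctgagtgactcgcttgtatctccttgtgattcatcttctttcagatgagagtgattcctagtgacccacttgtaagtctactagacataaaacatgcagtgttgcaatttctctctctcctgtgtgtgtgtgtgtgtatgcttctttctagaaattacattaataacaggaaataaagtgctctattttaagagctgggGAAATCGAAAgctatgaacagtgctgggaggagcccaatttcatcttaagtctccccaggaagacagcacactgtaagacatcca
Mndal: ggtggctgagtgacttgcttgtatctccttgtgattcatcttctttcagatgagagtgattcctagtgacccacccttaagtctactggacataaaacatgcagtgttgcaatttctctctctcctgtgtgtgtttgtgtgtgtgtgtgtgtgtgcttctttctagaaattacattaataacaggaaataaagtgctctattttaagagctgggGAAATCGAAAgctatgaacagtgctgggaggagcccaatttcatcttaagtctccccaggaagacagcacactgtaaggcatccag
Ifi209: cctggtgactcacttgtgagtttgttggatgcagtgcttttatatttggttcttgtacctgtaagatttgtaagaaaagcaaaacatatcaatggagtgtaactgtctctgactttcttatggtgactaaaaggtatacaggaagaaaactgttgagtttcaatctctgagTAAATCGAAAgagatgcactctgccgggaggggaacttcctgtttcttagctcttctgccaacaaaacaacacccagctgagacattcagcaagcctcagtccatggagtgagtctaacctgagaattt
Aim2: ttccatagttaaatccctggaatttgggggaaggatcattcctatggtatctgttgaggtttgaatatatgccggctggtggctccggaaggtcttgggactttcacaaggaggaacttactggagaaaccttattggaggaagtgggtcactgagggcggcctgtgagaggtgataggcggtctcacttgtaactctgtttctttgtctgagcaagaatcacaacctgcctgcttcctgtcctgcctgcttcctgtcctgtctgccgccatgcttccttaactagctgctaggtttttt
Ifi213: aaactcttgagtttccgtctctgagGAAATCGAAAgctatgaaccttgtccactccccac
Ifi211: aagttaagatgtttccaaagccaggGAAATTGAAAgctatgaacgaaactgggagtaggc
Ifi207: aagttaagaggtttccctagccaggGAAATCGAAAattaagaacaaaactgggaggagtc

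RefSeq gave 9 windows for the 7 genes, with a second window for Ifi203 and for Mndal. This pair of GAAA, searched on both strands, stood in 6 of the 9 windows, against 3.44% of the 32851 RefSeq windows of this length, and in at least 1 window of 5 genes, namely Ifi203, Mndal, Ifi207, Ifi213 and Ifi211. The exact form GAAATCGAAA was shared by Ifi203, Mndal, Ifi207 and Ifi213 and was found in 16 windows of the genome (0.0487%), and Ifi211 carried GAAATTGAAA (38 windows, 0.116%). The first base of the match lay 35 bases before the start in Ifi203, 36 in Mndal, 37 in Ifi211, 41 in Ifi207 and 73 in Ifi213. The second Mndal window held another match on the opposite strand, and the second Ifi203 window held none. The Ifi209 window held no match, and its closest 10 bases differed from GAAATCGAAA by G1T, counted from the first base of the motif. The Aim2 window held none. The Ifi203 and Mndal windows were identical at 94.3% of 299 aligned columns and those of Ifi207 and Ifi211 at 87.5% of 297, so matches in these genes are not independent. TTCNNNGAA, the core of a gamma-activated site, was in none of the 7 genes (8.3% of all windows), nor was GGAA followed after 2 bases by GAAA, a composite site of Ets factors and interferon regulatory factors that can overlap the pair of GAAA (2.72%). Such matches describe the sequence and not binding.

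Ifi203 and Mndal carried most of the counts of the family in stem cells. In WT the summed level of the 8 genes averaged 471 CPM in ST-HSC, 454 in CLP, 314 in LT-HSC, 189.5 in CMP, 172 in GMP and 36.8 in MEP. Ifi203 and Mndal together made up 94.8% of this sum in ST-HSC and 94.6% in LT-HSC, but 82.8% in MEP, 78.1% in CMP, 51.4% in CLP and 44.0% in GMP. In GMP and CLP, Ifi209 made up much of the rest. In a bulk sample, fewer expressing cells and less RNA per cell cannot be told apart.

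Ifi203, a cluster gene whose product carries HIN domains, fell from stem cells to MEP. The WT libraries held 171, 184 and 181 CPM in LT-HSC, 265, 277 and 308 in ST-HSC, 63.6, 84.1, 87.6 and 92.4 in CMP, and 41.2, 37.2, 37.5 and 37.8 in GMP. WT MEP held 14.4, 10.4, 9.07 and 9.29 CPM, and WT CLP 142, 113, 63.4 and 127. The ranges of ST-HSC, LT-HSC, CMP, GMP and MEP did not overlap in this order, and CLP overlapped CMP. The WT mean ± SD was 283 ± 22.4 in ST-HSC (n = 3) and 10.8 ± 2.46 in MEP (n = 4).

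Mndal, its neighbour, kept nearly the same order at a smaller range. WT libraries were at 109, 131 and 116 CPM in LT-HSC, 152, 167 and 171 in ST-HSC, 79.2, 58.2, 61.3 and 63.9 in CMP, and 34.1, 34.2, 50.1 and 31.5 in GMP. WT MEP held 22.2, 22.9, 12.8 and 21.4 CPM, and WT CLP was the most uneven group, at 131, 86.7, 188 and 65.5. From ST-HSC to MEP the WT mean went from 163 ± 10.2 (SD, n = 3) to 19.8 ± 4.70 CPM (SD, n = 4). The ratio of Ifi203 to Mndal counts therefore shifted between populations, from 1.73 ± 0.0712 (SD, n = 3) in WT ST-HSC to 0.561 ± 0.137 (SD, n = 4) in WT MEP.

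Ifi209, which stands for Pyhin1, was high in CLP, GMP and CMP and near 0 in the stem cells and MEP. The 4 WT GMP libraries held 80.9, 92.1, 76.8 and 67 CPM, the WT CMP libraries 26.9, 25.4, 53.2 and 24.8, and the WT CLP libraries 202, 121, 108 and 69.6. WT LT-HSC held 0.173, 0.345 and 0.158 CPM, WT MEP 0.275, 0.15, 0 and 0.705, and WT ST-HSC 3.08, 0.811 and 0.0597. No WT LT-HSC, ST-HSC or MEP library reached the lowest CMP library. Ifi209 was thus low both in the stem cells, where Ifi203 and Mndal were highest, and in MEP, where they were lowest.

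Aim2, the cytosolic DNA sensor, had a count in every library outside CLP, with WT means from 5.51 CPM in MEP to 17.1 in ST-HSC. WT LT-HSC held 13, 21.7 and 13.3 CPM, WT ST-HSC 13.1, 22.5 and 15.7, WT CMP 8.82, 5.98, 5.85 and 11.8, WT GMP 13.6, 12.9, 12.7 and 13.2, and WT MEP 6.43, 7.47, 5.02 and 3.14. The WT CLP libraries scattered from 0 to 53.8 CPM, with 18.4 and 0.374 between these values. Among the 46 libraries, Aim2 was at 0 in 2, and both were CLP.

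The other 4 genes were low or patchy. Ifi211, which stands for Mnda, was at 50.3, 64.4, 131 and 31.2 CPM in WT CLP and at 1.91, 1.46, 1.55 and 3.71 in WT GMP, and no count fell on it in any WT LT-HSC, ST-HSC or MEP library. Ifi213 was at 6.48, 4.39 and 4.32 CPM in WT ST-HSC, above the other WT groups except CLP, where its 4 values ran from 0 to 18.2. Ifi204 (p204) stayed at or below 4.03 CPM in every WT library outside CLP, and reached 21.1 in 1 WT CLP library. Ifi207 had no count in any WT library and a count in 3 Tet2 KO libraries, at most 1.51 CPM.

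**Figure D1:**
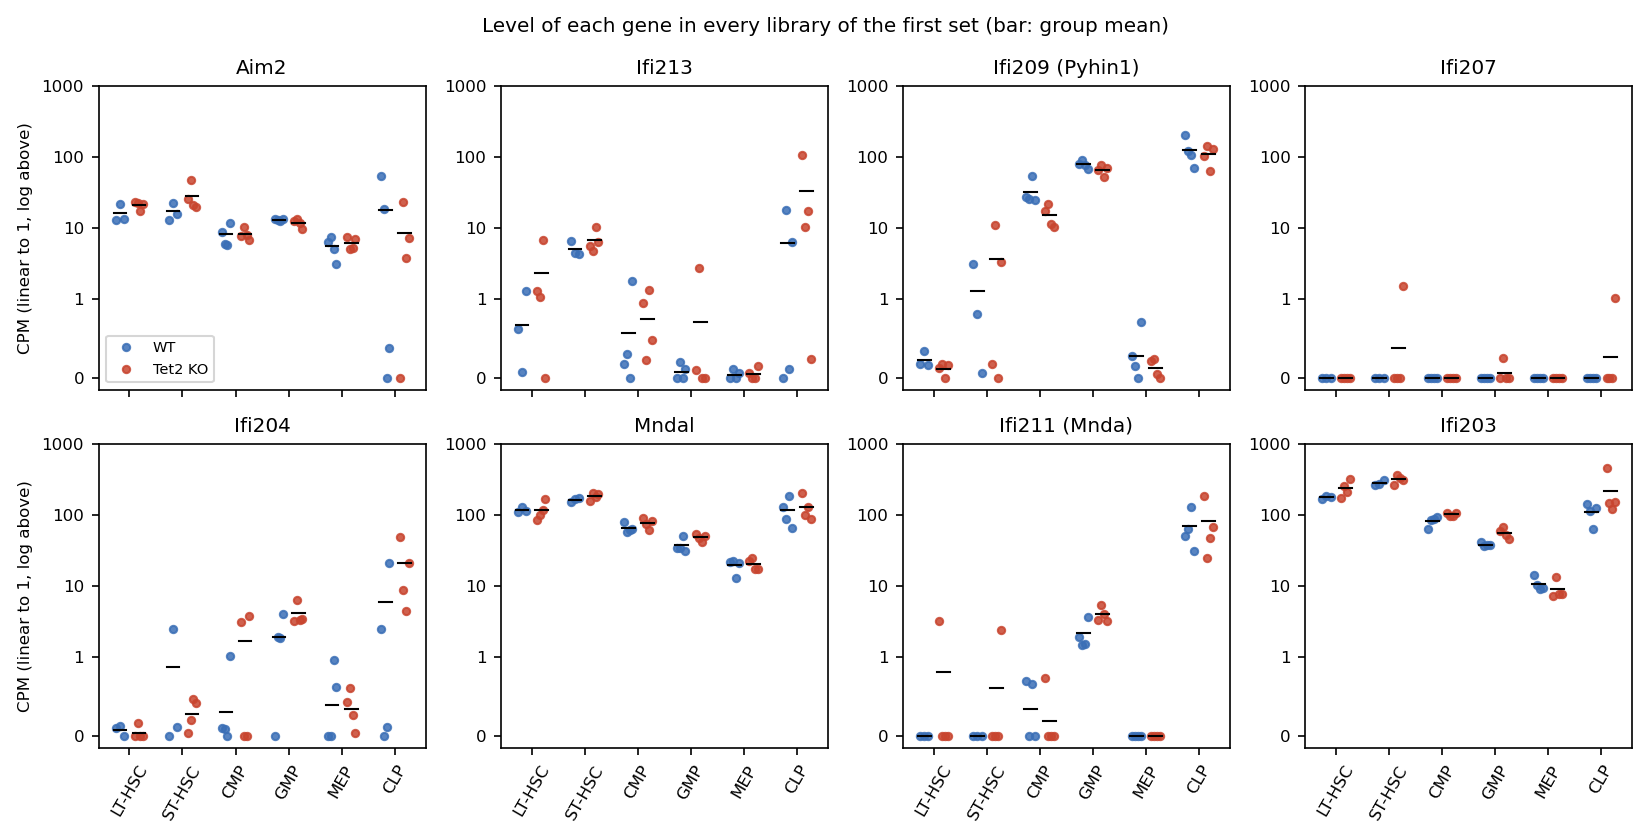
Level of each of the 8 genes in every library of the first set, in CPM (vertical axis, linear up to 1 and logarithmic above), by population, with WT in blue and Tet2 KO in red. Each point is 1 library and each bar a group mean (WT LT-HSC and ST-HSC n = 3, other groups n = 4). Ifi203 and Mndal step down from ST-HSC to MEP, Ifi209 is high in CMP, GMP and CLP, and Ifi207 is at 0 in 43 of the 46 libraries.

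Divided by exon length, for a comparison between genes, the mean level of Mndal stood above that of Ifi203 in each of the 6 WT populations and in Tet2 KO outside LT-HSC, where Ifi203 was at 35.9 CPM per kb and Mndal at 32.6. The length is that of all annotated exons of a gene together (6.71 kb for Ifi203, 3.63 kb for Mndal), not of the transcript expressed. The order of these genes rests on it, since by CPM Ifi203 was above Mndal in WT ST-HSC (283 against 163). In WT ST-HSC the mean level per kb of exon was 45.1 CPM for Mndal, 42.2 for Ifi203, 4.89 for Aim2 and 0.371 for Ifi209. In WT GMP it was 22.3 for Ifi209, 10.3 for Mndal, 5.73 for Ifi203 and 3.75 for Aim2. In WT CLP it was 38.7 for Ifi211, 35.3 for Ifi209, 32.5 for Mndal, 16.6 for Ifi203 and 5.18 for Aim2, with Ifi211 highest in 2 of the WT CLP libraries and Ifi209 in the other 2. The leading gene of the family thus differed between populations.

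**Figure D2:**
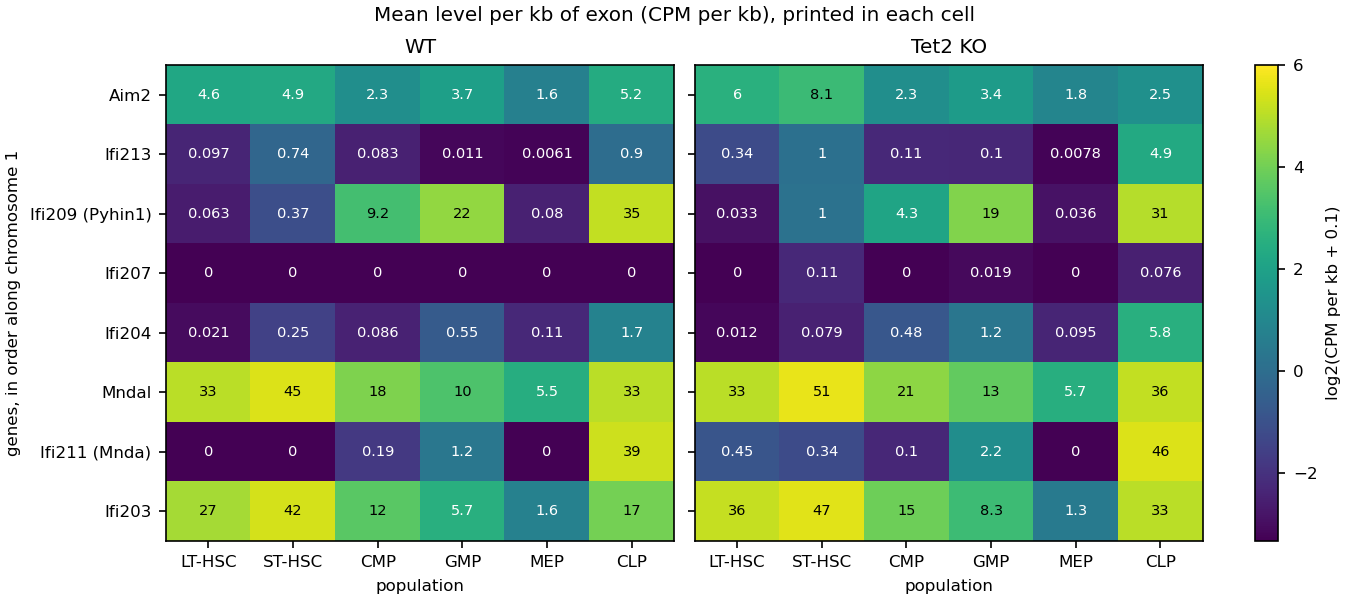
Mean level per kb of exon, in CPM per kb, of the 8 genes in the order of the chromosome (rows) and the 6 populations (columns), for WT and Tet2 KO. The number in each cell is the mean over 3 or 4 libraries and the colour its log2 with 0.1 added. Mndal and Ifi203 lead in stem cells, and Ifi209 leads in GMP.

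The differences between populations were tested in an edgeR quasi-likelihood fit of the 22 WT libraries, and separately of the 24 Tet2 KO libraries, with Benjamini-Hochberg adjustment over all genes tested. Of the 8 genes, 7 passed the filter on low counts and Ifi207 did not. In WT, 5 of the 7 differed between populations against a background of 44.6% of 20006 genes. These were Ifi203 (adjusted p = 2.16e-10), Mndal (3.33e-07), Ifi209 (1.10e-06), Ifi211 (3.30e-05) and Ifi213 (0.0332). Ifi204 (0.266) and Aim2 (0.706) did not pass. In Tet2 KO, 6 of the 7 differed, against 40.2% of 19415 genes, with adjusted p = 3.51e-08 for Ifi203, 1.88e-07 for Mndal, 1.44e-05 for Ifi209, 0.00281 for Ifi204, 0.00299 for Ifi211, 0.00812 for Ifi213 and 0.207 for Aim2. With the replicate number as a block in the fit, Ifi213 no longer passed in Tet2 KO.

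Aim2 depended on the CLP libraries. Without them, an alternative chosen after seeing the data, Aim2 differed between the other 5 populations in WT (adjusted p = 0.00171) and in Tet2 KO (1.16e-05), and was lower in CMP than in ST-HSC by a log2 fold change of -1.08 in WT (adjusted p = 0.0286) and -1.83 in Tet2 KO (0.000403). Without the CLP libraries, Ifi211 (0.121) and Ifi213 (0.0562) no longer passed in Tet2 KO. The Ifi213 call in WT was lost in 6 of 22 fits that each left out 1 library (WT CLP replicate 3, GMP replicate 5, MEP replicates 2, 4 and 5, ST-HSC replicate 2; adjusted p 0.0522 to 0.0664), and that in Tet2 KO without CLP replicate 2 (0.0526). Leaving out that library also made Aim2 pass in Tet2 KO (0.00144).

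Steps between populations were then read from the same fits, with a call at an adjusted p below 0.05 and a change of at least 2-fold. Of 42 pairs of a gene and a step, 15 were called in WT and 9 in Tet2 KO, and 8 were called in both, each in the same direction. The share of all genes called is given with each step below. The overlap has no such share beside it, so nothing is read from it. Both fits share their populations but no libraries.

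From LT-HSC to ST-HSC none of the 7 genes was called in either genotype, where the background was 0.175% of genes in WT and 0.118% in Tet2 KO. At an unadjusted p below 0.05 there were 2 members in each genotype by edgeR, Ifi203 and Ifi209 in WT (8.85% of genes) and Ifi209 and Mndal in Tet2 KO (8.57%). DESeq2 called 0 members in WT (3.79% of genes) and 1, Ifi209, in Tet2 KO (3.59%, adjusted p = 0.00112). Ifi203 was at 0.68 in WT and 0.42 in Tet2 KO on the log2 scale.

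Into the myeloid branch, Ifi203 and Mndal fell and Ifi209 rose. In WT CMP against ST-HSC, 3 members were called (background 5% of genes): Ifi203 fell by 1.79 on the log2 scale (SE 0.21, adjusted p = 2.81e-05), Mndal fell by 1.33 (SE 0.28, adjusted p = 0.00572) and Ifi209 rose by 4.62 (SE 1.04, adjusted p = 0.00976). The Ifi209 call was lost without WT ST-HSC replicate 3 (0.0594). In Tet2 KO the 2 members called (3.33%) were Ifi203 (-1.65, SE 0.33, adjusted p = 0.00724) and Mndal (-1.29, SE 0.25, adjusted p = 0.00628), while Ifi209 was at 2.04 (SE 1.10, adjusted p = 0.332), with 1 ST-HSC library at 11.1 CPM inside the range of CMP.

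From CMP to GMP, Ifi203 fell again by 1.07 in WT (SE 0.20, adjusted p = 0.00301), as the 1 member called against 3.15% of genes. No member was called in Tet2 KO (3.08%), where Ifi203 was at -0.80 (SE 0.32, adjusted p = 0.184). By edgeR 2 members, Ifi203 and Mndal, had an unadjusted p below 0.05 there, as did 18% of genes, and DESeq2 called 0 members (8.2% of genes). In WT the members with an unadjusted p below 0.05 were 3, Ifi203, Ifi211 and Mndal, against 16.9% of genes, and DESeq2 called 1, Ifi203 (7.23%).

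From CMP to MEP, Ifi203, Mndal and Ifi209 fell in both genotypes. In WT 4 members were called, all lower, against 6.46% of genes: Ifi203 fell by 2.97 (SE 0.21, adjusted p = 3.06e-08), Mndal fell by 1.77 (SE 0.27, adjusted p = 0.000172) and Ifi209 fell by 6.89 (SE 1.03, adjusted p = 0.000163). Ifi211, with counts in 2 of 4 WT CMP libraries and none in MEP, was at least 7.39-fold higher in CMP than a floor of 3 counts per library (adjusted p = 0.0322), a call lost in 6 of 22 fits without 1 library (WT CMP replicates 2 and 4 and each of the 4 WT MEP libraries; up to 0.0735). This Ifi211 call was also lost with the replicate number as a block in the fit. In Tet2 KO 3 members were called (3.62%), namely Ifi203 (-3.49, SE 0.35, adjusted p = 1.60e-06), Mndal (-1.89, SE 0.26, adjusted p = 5.42e-05) and Ifi209 (-6.88, SE 1.39, adjusted p = 0.00432).

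The 2 steps that involve CLP rest on the libraries described above. In WT CLP against ST-HSC, 3 members were called (24.5% of genes). Ifi203 fell by 1.33 (SE 0.21, adjusted p = 0.000104), Ifi209 rose by 6.57 (SE 1.14, adjusted p = 0.000246), and Ifi211 was at least 1706-fold higher in CLP than a floor of 3 counts per ST-HSC library (adjusted p = 0.000677). In Tet2 KO the 2 called (20.1%) were Ifi209 (4.90, SE 1.25, adjusted p = 0.00786) and Ifi204 (6.19, SE 1.88, adjusted p = 0.0228), the latter lost without ST-HSC replicate 2 (0.0564) or 3 (0.0595). The Ifi204 call was also lost with the replicate number as a block.

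In WT CLP against GMP, 4 members were called higher (19.9%), Ifi203 by 1.53 (SE 0.20, adjusted p = 1.83e-05), Mndal by 1.66 (SE 0.26, adjusted p = 0.000142), Ifi211 by 5.01 (SE 1.35, adjusted p = 0.0184) and Ifi213 by 6.29 (SE 2.24, adjusted p = 0.0475). The ranges of Ifi213 overlapped and its call was lost in 16 of 22 fits without 1 library (up to 0.111), and that of Ifi211 was lost without WT GMP replicate 2, 3 or 4 (up to 0.0516). With the replicate number as a block, the Ifi211 call was lost too. In Tet2 KO the 2 called (9.72%) were Ifi203 (1.91, SE 0.33, adjusted p = 0.000738) and Mndal (1.35, SE 0.25, adjusted p = 0.00137). Ifi209, whose CLP and GMP ranges overlapped, was not called in this step in either genotype.

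Ranked by WT mean within each gene, neighbouring populations were also compared singly by two-sided exact permutation tests. Of 33 such pairs over the 7 genes, none passed after adjustment (lowest adjusted p = 0.118). A set of 4 libraries against 4 cannot give an unadjusted p below 0.0286, 4 against 3 below 0.0571, or 3 against 3 below 0.1. At these sizes the test could hardly pass over so many pairs, so nothing is read from it, and the steps above rest on the edgeR fits.

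Genes with a pattern like that of each member were found by Pearson's r of log2 CPM over the 46 libraries, among 8877 genes with a mean of at least 10 CPM. These r values are descriptions, since libraries of 1 population share their levels. For Ifi203 the closest were Stat4 (0.959), Epsti1 (0.957), Mndal (0.943), Gm4759 (0.938) and Fxyd5 (0.925). For Mndal they were Ifi203 (0.943), Epsti1 (0.930), Hmgn3 (0.911), AW112010 (0.901) and Stat4 (0.900). Ifi209 ran with Cotl1 (0.924), Ms4a4c (0.919), Ly6c2 (0.903), Irf8 (0.894) and Il17rb (0.873). Ly6c2 marks monocytic cells and Irf8 encodes a factor of monocyte and dendritic cell development.

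Aim2 ran closest to Zfp141 (0.921), Slc25a13 (0.884), Eif2ak4 (0.882), Rab32 (0.878) and Rps4l (0.877), none of them a member. Ifi211 ran with Klrk1 (0.899), Anxa6 (0.890), Psap (0.890), Tapbpl (0.872) and Cyba (0.870). No gene came above 0.693 for Ifi213 (Upp1) or 0.610 for Ifi204 (Fam189b). Among the members, r was 0.750 for Ifi209 with Ifi211 and 0.660 for Ifi203 with Ifi213, and lay between -0.388 and 0.138 for Aim2 with the others. All r values of Aim2 include the CLP libraries, where its WT levels alone ran from 0 to 53.8 CPM. They are not given without CLP, so no lack of relation to the other members is read from them.

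**Figure D3:**
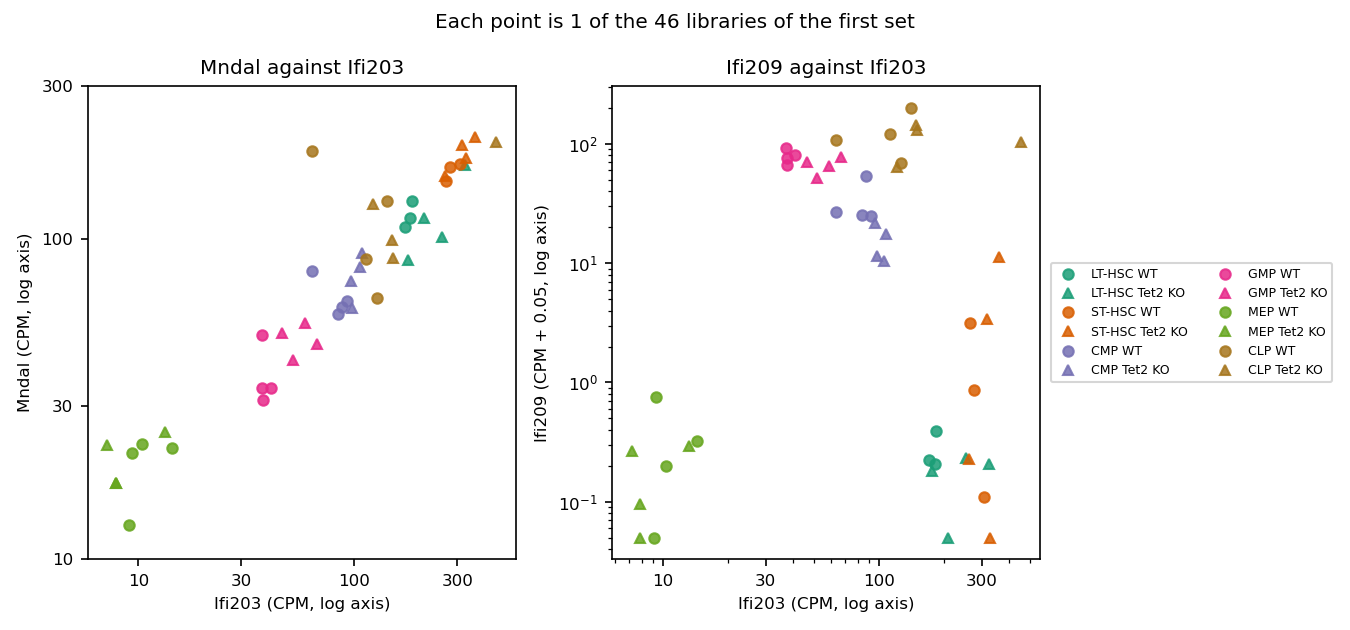
Mndal against Ifi203 (left) and Ifi209 against Ifi203 (right) in the 46 libraries of the first set, in CPM on logarithmic axes, with 0.05 added to Ifi209. Each point is 1 library, colour gives the population, circles are WT and triangles Tet2 KO. Mndal climbs with Ifi203 from MEP to ST-HSC (r = 0.943), whereas high Ifi209 is found in CMP, GMP and CLP libraries over a wide range of Ifi203.

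Tet2 KO against WT within each population changed no member past the threshold. Members tested and called were 0 of 5 in LT-HSC (background 0.0245% of genes), 0 of 6 in ST-HSC (0.0185%), 0 of 5 in CMP (4.57%), 0 of 6 in GMP (4.38%), 0 of 5 in MEP (4.36%) and 0 of 7 in CLP (0.00766%), by edgeR's quasi-likelihood test. At an unadjusted p below 0.05 the members were 2 in CMP (Ifi203 and Ifi209), 2 in GMP (Ifi203 and Ifi211) and 0 elsewhere, where 19.1% and 17.3% of all genes tested in CMP and GMP reached it. DESeq2 called 1 member in CMP, Ifi209 (7.07% of genes), and 0 in LT-HSC (1.47%), ST-HSC (1.98%), GMP (5.72%), MEP (6.13%) and CLP (2.8%).

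Ifi203 had higher means in Tet2 KO in 5 of the 6 populations, without passing the test in any. In GMP the WT libraries held 41.2, 37.2, 37.5 and 37.8 CPM and the Tet2 KO libraries 59, 66.8, 51.7 and 46.4, so that the groups did not overlap (log2 fold change 0.50, SE 0.14, adjusted p = 0.0693). Across alternatives that kept all libraries of GMP this adjusted p ran from 0.0142 to 0.993, always below a 2-fold change. In CMP the Tet2 KO libraries held 108, 96.1, 97.8 and 106 CPM, all above the WT maximum of 92.4 (0.31, SE 0.14, adjusted p = 0.259).

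In LT-HSC the Tet2 KO libraries held 176, 254, 209 and 324 CPM, and the lowest lay within the WT range (0.44, SE 0.24, adjusted p = 0.998). In ST-HSC they held 262, 361, 329 and 316 CPM, again overlapping WT (0.19, SE 0.16, adjusted p = 0.999). Tet2 KO CLP held 454, 149, 121 and 150 CPM, so that a single library set the mean (0.94, SE 0.47, adjusted p = 1.0), and without single libraries the change ran from 0.30 to 1.14. MEP went the other way, at 7.19, 13.3, 7.84 and 7.83 CPM (-0.27, SE 0.27, adjusted p = 0.741).

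Mndal was not called either. Its Tet2 KO libraries held 90.4, 74.1, 60.8 and 81.8 CPM in CMP (0.22, SE 0.15), 54.7, 46.9, 41.8 and 51 in GMP (0.32, SE 0.19, adjusted p = 0.439) and 157, 208, 179 and 196 in ST-HSC (0.21, SE 0.16), and each group overlapped WT. Tet2 KO LT-HSC, at 85.7, 101, 116 and 170 CPM, spread around the WT values, as did Tet2 KO MEP, at 22.7, 24.9, 17.3 and 17.3, and Tet2 KO CLP, at 201, 99, 129 and 87.3.

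Ifi209 was the 1 member lower in Tet2 KO with groups apart. Tet2 KO CMP held 17.4, 21.5, 11.5 and 10.5 CPM, all below the WT minimum of 24.8 (log2 fold change -1.11, SE 0.33, adjusted p = 0.0847 by edgeR and 0.0160 by DESeq2; 0.0669 to 0.204 without single libraries). Marker levels were also read in the CMP libraries. A summed list of MEP markers was at 2660 to 5452 CPM in Tet2 KO CMP and 471 to 1483 in WT CMP, without overlap. Ranges overlapped for a monocyte list (40.9 to 269 against 139 to 428), a GMP list (3443 to 3764 against 3701 to 5213) and Irf8 (29.0 to 57.1 against 29.5 to 109). Their part in the Ifi209 difference was not tested. In GMP the Tet2 KO libraries held 65.4, 77.5, 51.8 and 70.5 CPM and overlapped WT (-0.30, SE 0.15, adjusted p = 0.356). Tet2 KO CLP, at 104, 143, 64.3 and 130 CPM, lay within the WT range apart from its lowest library, and Tet2 KO LT-HSC and MEP stayed at or below 0.243 CPM. Tet2 KO ST-HSC was uneven, at 0.177, 11.1, 0 and 3.33 CPM.

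Counting groups that did not overlap in either direction gave Ifi203 and Ifi209 of 5 members in CMP, where 15.8% of genes tested did not overlap, and Ifi203 of 6 in GMP (13.2%). No member was apart in LT-HSC (7.04%), ST-HSC (8.2%), MEP (13.1%) or CLP (4.04%).

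Aim2 was not called in any population. In Tet2 KO, LT-HSC held 22.9, 22.4, 17.1 and 21.6 CPM (0.41, SE 0.32) and ST-HSC 25.2, 47.3, 21.2 and 20 (0.77, SE 0.39, adjusted p = 0.908), where 1 library stood above the other 3 and the groups overlapped. CMP held 7.65, 10.2, 7.94 and 6.68 CPM, GMP 12.6, 13.3, 11.6 and 9.77 (-0.19, SE 0.18), and MEP 7.55, 5.13, 5.26 and 6.97. CLP held 0, 23.6, 3.73 and 7.2 CPM. Ifi211 in GMP was at 3.36, 5.36, 4.05 and 3.27 CPM in Tet2 KO (0.87, SE 0.37, adjusted p = 0.258), and the lowest of these lay below the highest WT library.

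Ifi204 in GMP was at 3.26, 6.44, 3.38 and 3.46 CPM in Tet2 KO and at 0, 1.92, 1.84 and 4.03 in WT (1.05, SE 0.92, adjusted p = 0.641), and the highest WT library lay within the Tet2 KO range. In CLP, where the marker sums above also differed between genotypes, it was at 49.2, 8.71, 4.45 and 20.8 CPM in Tet2 KO and at 0, 0.119, 2.51 and 21.1 in WT, again with overlap (1.75, SE 1.90, adjusted p = 1.0). Ifi213 in Tet2 KO CLP was at 106, 10.2, 17.4 and 0.239 CPM. Ifi204 and Ifi213 both had their highest value of the 46 libraries in Tet2 KO CLP replicate 2, as did Ifi203 (454) and Ifi211 (186). This library also had the highest summed T or NK cell markers of the CLP libraries (2137 CPM, against 195 to 799 in the others) and the lowest number of genes with a count (13754). Of that marker list, Cd3e was at 0 in all Tet2 KO CLP libraries, and the list also summed to 520 to 781 CPM in Tet2 KO GMP. The sum therefore does not show T or NK cells. Whether the marker sum or the number of genes has a part in its member levels was not tested.

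**Figure D4:**
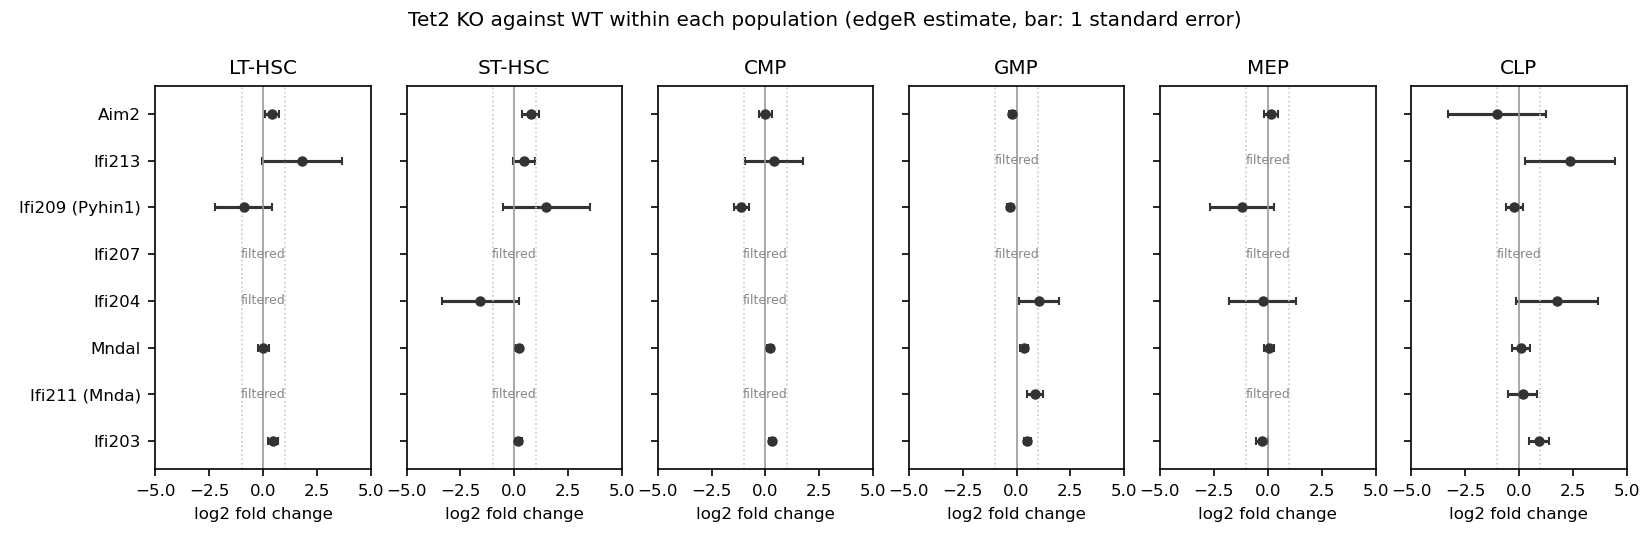
Log2 fold change of Tet2 KO against WT for each of the 8 genes in each population (horizontal axis), as edgeR estimated it, with bars of 1 standard error, a solid line at 0 and dotted lines at a 2-fold change. Genes below the filter on low counts are marked. Ifi203 lies to the right of 0 in 5 populations and Ifi209 to the left in CMP (-1.11), and no member passed the threshold.

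Averaged over the 6 populations in a fit of all 46 libraries, the 8 members gave 0 calls at an adjusted p below 0.05 with at least a 2-fold change (3.69% of 22360 genes) and 0 by adjusted p alone (6.94%). Ifi207 and Ifi211 could hardly pass, as 9 and 4 of their groups had every library at 0 (SE 7933 and 11288). Ifi203 came nearest, higher in Tet2 KO by 0.36 (SE 0.11, adjusted p = 0.0525). Its adjusted p ran from 0.0132 to 0.0936 without single libraries and was 0.0475 without the CLP libraries (log2 fold change 0.26), so that this value lay on both sides of the threshold. Over 5 settings, with edgeR or voom, the adjusted p ran from 0.0318 to 0.470 and the log2 fold change from 0.26 to 0.38. The edgeR fit of all 46 libraries counts each library on its own, although libraries of 1 replicate number may come from 1 mouse. With 1 mean of log2 CPM per replicate number over CMP, GMP, MEP and CLP, Ifi203 was higher in Tet2 KO by 0.35, with overlap (two-sided exact permutation p = 0.0571, n = 4 against 4, where the smallest possible is 0.0286), and it had the lowest p of the members. Over all 6 populations, with the 3 WT replicate numbers that had every population, the difference was 0.28 and the groups did not overlap (exact permutation p = 0.0571, the smallest that 3 against 4 can give). Adjusted over the 8 members, the permutation p of Ifi203 was 0.457 in either case. The share of all genes apart on these means was not counted, so nothing is read from the gap. In the fit of all 46 libraries, Ifi203 was the 1 member with an unadjusted p below 0.05, which 17.0% of all genes had. Mndal was at 0.15 (SE 0.11, adjusted p = 0.624), Ifi209 at -0.36 (SE 0.42) and Ifi213 at 1.41 (SE 0.76, adjusted p = 0.364). No member was called for a difference of the genotype effect between populations (2.65% of genes, Ifi203 adjusted p = 0.452).

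The members' counts by direction were read beside all genes tested. In Tet2 KO, 4 of 5 members tested were higher in LT-HSC, 5 of 6 in ST-HSC, 3 of 5 in CMP, 4 of 6 in GMP, 2 of 5 in MEP and 5 of 7 in CLP. Their median log2 fold change was 0.41 in LT-HSC, 0.33 in ST-HSC, 0.22 in CMP, 0.41 in GMP, -0.23 in MEP and 0.17 in CLP, and that of all genes tested lay between 0.03 and 0.07, with 52.0% to 54.3% of them higher.

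Related lists were counted in the same tests. Of a list of 34 interferon-stimulated genes, 27 of 33 tested had a positive fold change in Tet2 KO LT-HSC, 26 of 34 in ST-HSC, 23 of 33 in CMP, 31 of 33 in GMP, 25 of 32 in MEP and 19 of 24 in CLP, where between 52.0% and 54.3% of all genes had one. Their medians ran from 0.31 in CMP to 0.58 in CLP. Few passed the test, namely Ifi44 in CMP (1.30, SE 0.31, adjusted p = 0.0378) and GMP (1.84, SE 0.45, adjusted p = 0.0330), and the GTPase Igtp (1.65, SE 0.39, adjusted p = 0.0402) and Trim30a (1.10, SE 0.18, adjusted p = 0.00584) in MEP. Averaged over populations, Ifi44, Iigp1, Eif2ak2 and Oas3 were called. Without the CLP libraries Ifi44 (1.52 with them and 1.27 without, adjusted p = 1.36e-05) and Iigp1 (2.14 and 2.39, adjusted p = 0.00444) were still called. Eif2ak2 fell below a 2-fold change (1.38 and 0.72, adjusted p = 0.000341). Oas3, which had no count in any WT CLP library, was at 0.45 without CLP (SE 0.30, adjusted p = 0.443).

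Of 23 inflammasome genes, a list that holds the Aim2 partners Pycard and Casp1 beside other sensors and cytokines, 1 of 14 tested was called in MEP, Ninj1, which acts in membrane rupture (-1.77, SE 0.37, adjusted p = 0.0214), and none in the other 5 populations. Averaged over populations Naip6, which belongs to the NAIP sensors that act with Nlrc4, was called higher, but it had no count in any WT CLP library and was at 0.59 without CLP (SE 0.26, adjusted p = 0.170). The adaptor Pycard, at 0.17 (SE 0.09, adjusted p = 0.355), and Casp1, at 0.26 (SE 0.12, adjusted p = 0.257), did not pass. No DNA sensing gene was called among the 20 tested in each population or the 21 tested on average. Of 17 interferon receptors and regulators, Ifngr2 was lower in CMP (-1.85), GMP (-2.07), MEP (-1.46) and on average (-1.03, and -1.16 without CLP), and Ifnar2 in CMP (-1.57) and MEP (-1.01). Beside the calls in these lists, the share of all genes called was 4.57% in CMP, 4.38% in GMP, 4.36% in MEP and 3.69% on average.

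Of the 6 other PYHIN genes with a row, between 2 and 4 could be tested within a population and none in MEP, and none of those tested was called. On average over populations, Ifi203-ps, a pseudogene that shares 8.85% of the 50-base words of Ifi203, was called higher (2.11, SE 0.63, adjusted p = 0.0318) but not without the CLP libraries (1.56, SE 0.58, adjusted p = 0.0856). Ifi205 was at 9.73 to 27.8 CPM in WT CLP, and Ifi202b at 0 in all 46 libraries.

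In the second set of LT-HSC, Ifi203 was higher in Tet2;Sting DKO than in Sting KO without passing the test. WT held 62.0, 179 and 91.6 CPM, Sting KO 67.4, 116 and 65.2, and Tet2;Sting DKO 229.6, 136 and 222. All DKO libraries lay above all Sting KO libraries, as 18.6% of genes tested had these groups apart in one direction or the other, and WT overlapped both. DKO against Sting KO gave 1.28 (SE 0.47, adjusted p = 0.486) with 0 of 2 members called (0.159% of genes), DKO against WT 0.77 (SE 0.50, adjusted p = 0.657) with 0 of 3 (0.657%), and Sting KO against WT -0.42 (SE 0.57) with 0 of 3 (0% of genes). The last of these turned to 0.11 without WT replicate 2. At an unadjusted p below 0.05 the members were 1, 0 and 0, where 8.30%, 13.2% and 4.71% of genes had one. The comparisons share groups, and the tables were normalized separately, so levels are not set across the sets.

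Mndal in the second set was at 50.1, 229.9 and 177 CPM in WT, 197, 130.2 and 131 in Sting KO, and 53.9, 246 and 181 in Tet2;Sting DKO, with no order of the groups. Aim2 was at 58.0, 0 and 5.87 CPM in WT, 0, 0.0485 and 1.09 in Sting KO, and 2.097, 0 and 0 in DKO, a pattern in which 1 WT library carried most of the counts. Ifi204 reached at most 0.0820 CPM, and Mnda and Pyhin1 had no count in any of the 9 libraries. The first set had given low or no levels of these 3 genes in LT-HSC as well.

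**Figure D5:**
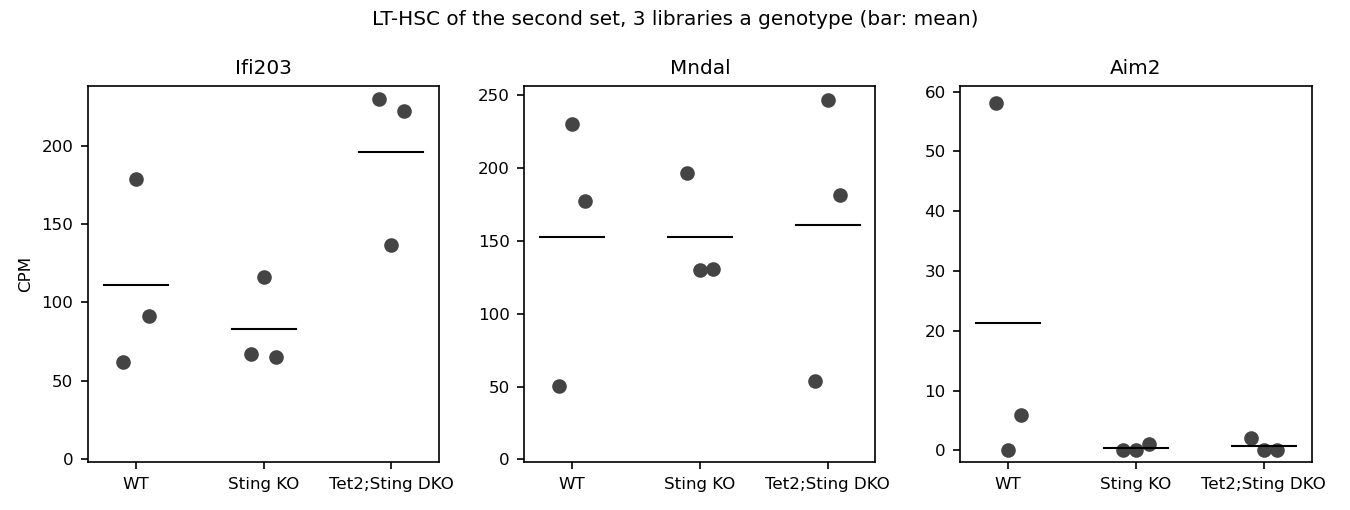
Level of Ifi203, Mndal and Aim2 in the LT-HSC libraries of the second set, in CPM on a linear axis, by labelled genotype. Each point is 1 library and each bar the mean of 3. Tet2;Sting DKO lies above Sting KO for Ifi203 (18.6% of genes had these groups apart), and Mndal overlaps throughout.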

How the data were processed

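Bulk RNA-seq counts of 46 libraries (first table) and 9 libraries (second table) were used as deposited. The deposited counts are whole reads per gene, not normalized. Per the submitters' processing notes the authors used Trim Galore 0.6.7, HISAT2 and DESeq2, and the notes list mm10 and mm9; the study's methods give mm10 and other versions of Trim Galore and HISAT2 than the notes. The counter and annotation are not given in the sources used here. Coordinates, exon lengths and shared words came from GENCODE vM21 (55154 of 55421 identifiers matched), and start-site windows from RefSeq. The second table also held 2 lines without counts, which were left out. Columns without a sample numbered 0.

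Counts were scaled to CPM with TMM factors, separately for each table. Tests were edgeR 4.0.16 quasi-likelihood fits (R 4.3.3) after filterByExpr, of all genes, with Benjamini-Hochberg adjustment. A call needed an adjusted p below 0.05 and at least a 2-fold change, except that tests over several groups used the adjusted p alone. Genotypes were compared within each population, then in 1 fit of 12 groups averaged over populations; populations were compared within each genotype. Single neighbours were compared by exact permutation tests of log2 CPM with a prior count of 2. Likeness was Pearson's r, with 5 genes named per member. Named genes were the members, their 5 most like genes and the called or most abundant genes of each list. The scripts were tested on simulated data. Depth is given in the report, and PCR reads carry no molecular identifiers. The labels do not name the mouse behind a library, and the study's legends count the replicates of its RNA-seq as mice. Same-numbered libraries of WT and Tet2 KO of 1 population had r from -0.0276 to 0.0403, those of the second set -0.0853 to 0.0360, and those of populations of 1 genotype -0.0146 to 0.115, with a median above 0 in 30 of 30 pairs of groups. In none was every r above 0.1, so the numbers were not used to pair libraries.

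Alternatives were DESeq2 1.42.0, RLE size factors, no filter on low counts, another prior count (0.5), limma 3.58.1 (voom), the 46-library fit, the replicate block, leaving out each library and, added after the data were seen, leaving out the CLP libraries. Each refit of the 46 libraries without 1 library kept the genes tested and the trended dispersion of the fit of all libraries. The members and lists were chosen with earlier results of these data known.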

Additional observations from a re-analysis of the deposited data

Results flagged for a closer look

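Of 71 sets of 1 member in 1 group of 4 libraries, 18 held a library far from the other 3 by Dixon's test at its 95% critical value. In 7 of these the other 3 libraries were at 0, where any level above 0 passes, and 11 were among the other 64 sets. The chance rate of about 5% holds for normally distributed values, which these CPM need not be, and the counts were not tested against it. Ifi207 was at 0 in the other 3 libraries of its group at Tet2 KO CLP replicate 5 (1.05 CPM), GMP replicate 3 (0.258 CPM) and ST-HSC replicate 5 (1.51 CPM). Ifi211 was likewise present in 1 library each of Tet2 KO CMP (replicate 2, 0.737 CPM), LT-HSC (replicate 2, 3.23 CPM) and ST-HSC (replicate 5, 2.44 CPM).

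Ifi204 was high in Tet2 KO GMP replicate 3 (6.44 CPM), Tet2 KO LT-HSC replicate 3 (0.165 CPM), WT CLP replicate 5 (21.1 CPM) and WT CMP replicate 5 (1.03 CPM). Ifi213 was high in Tet2 KO CLP replicate 2 (106 CPM) and Tet2 KO GMP replicate 3 (2.72 CPM).

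The expressed genes gave the other flags. Ifi203 was high in Tet2 KO CLP replicate 2 (454 CPM), Tet2 KO MEP replicate 3 (13.3 CPM) and WT GMP replicate 2 (41.2 CPM). Mndal was high in WT GMP replicate 4 (50.1 CPM) and low in WT MEP replicate 4 (12.8 CPM). Ifi209 was high in WT CMP replicate 4 (53.2 CPM), the library with the highest Irf8 (109 CPM) and monocyte marker sum (428 CPM) of the CMP libraries. It also had the highest GMP marker sum (5213 CPM) and the lowest MEP marker sum (471 CPM) of them. Ly6c2 did not follow, at 43.0 CPM there and 54.2 in WT CMP replicate 5. The part of these markers in the Ifi209 value was not tested.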

How the results depend on the processing

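Across the alternatives other than single left-out libraries, 83 counts of members, with steps summed within a genotype, stayed within 1.5 times of those reported and 3 did not. DESeq2 called 1 member in Tet2 KO against WT in CMP (Ifi209) in place of 0, and Ifi203 passed by adjusted p alone in the average over populations with RLE size factors (1 in place of 0) and without the CLP libraries (1). The cause was not tested. Of the counts for single steps, 54 stayed within 1.5 times and 2 did not, ST-HSC against LT-HSC in Tet2 KO by DESeq2 (1 in place of 0) and CLP against ST-HSC in Tet2 KO with the replicate block (1 in place of 2). Of the single member values that were called or are given with their alternatives here, 284 kept their side of the threshold, 3 gained it, 7 lost it and 0 turned. The lost calls came with the block (4), without the CLP libraries (2) and with no filter (Ifi213 in CLP against GMP, 0.0688). Of the member steps that edgeR did not call, which these counts leave out, DESeq2 called 5 (Ifi211 in 3, Ifi209 and Ifi213 in 1 each) and the fits without the CLP libraries 2 (Aim2 in CMP against ST-HSC in both genotypes).

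Leaving out 1 library at a time, members called between populations ranged from 4 to 5 in WT and 6 to 6 in Tet2 KO, and called pairs of member and step from 13 to 16 in WT and 8 to 12 in Tet2 KO. The average over populations gave 0 to 0 with the fold limit and 0 to 1 by adjusted p alone, and the interaction 0 to 0. Each of the 6 comparisons of genotype within a population and the 3 of the second set gave 0 to 0 members. Ifi203 in Sting KO against WT ranged from -0.74 to 0.11.

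With the replicate number as a block, which the check of the numbers does not back as a pairing (r from -0.0853 to 0.115 over all pairs of groups, weakly positive between populations of 1 genotype), the genotype comparisons gave 0 members, the populations 5 in WT and 5 in Tet2 KO (Ifi213 at 0.0570), and the steps 13 in WT (without Ifi211 in CLP against GMP, 0.0512, and MEP against CMP, 0.0950) and 8 in Tet2 KO (without Ifi204, 0.0524). In limma's voom fit the correlation within a number was 0.0217.

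Counts over all genes moved more. DESeq2 against edgeR gave, for Tet2 KO against WT, 235 against 4 genes in LT-HSC, 331 against 3 in ST-HSC, 1235 against 734 in CMP, 1049 against 651 in MEP and 464 against 1 in CLP, and in the second set 407 against 0, 1355 against 64 and 792 against 15. The fit of 46 libraries gave 20, 21, 285, 219 (against 725 in GMP), 423 and 1477 in LT-HSC, ST-HSC, CMP, GMP, MEP and CLP, and adjusted p alone gave 1105 in CMP. The block gave 2 in LT-HSC, 0 in CLP, and 26 and 0 in the DKO comparisons with WT and Sting KO, which no filter took to 105 and 47. For steps, DESeq2 and the fit without CLP gave 772 and 246 against 35 (ST-HSC against LT-HSC), 2238 and 2250 against 1001 (CMP against ST-HSC), 1413 and 1696 against 630 (GMP against CMP) and 2349 and 2437 against 1292 (MEP against CMP) in WT. In Tet2 KO they gave 836 and 109 against 23 (15 with no filter), 1929 and 1820 against 646, 1678 and 1675 against 598, and 2015 and 1517 against 703, and DESeq2 gave 3487 against 1888 for CLP against GMP. Voom gave 1149 against 592 for the interaction.

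The 2-fold limit keeps smaller changes of members from being called whatever their adjusted p. Sequence shared with other genes limits Ifi211 and Ifi209, the CLP libraries limit all results on CLP, and gene-level counts do not check the labels.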
